A study of Mus musculus with 12 samples.

Results

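The 37 genes described here are targets of type I and type II interferon together with genes of MHC class I and class II antigen presentation. They were chosen by symbol from the count table of 27304 genes, with earlier results of these data known. All 37 passed the low-count filter that left 13641 genes for testing. RNA-seq was done on the livers of 12 mice. In 6 controls the mice were Apoe-/-, lacking apolipoprotein E, which clears lipoproteins from plasma, and in 6 Ahr-null mice (Apoe-/-AhR-/-) the aryl hydrocarbon receptor, a ligand-activated transcription factor, was knocked out as well. Each genotype held 3 males and 3 females, all 4 groups shared the Apoe deletion and 12 weeks on the diet labelled HFD, and no Apoe-sufficient or chow-fed group was among them. The comparison asks how the loss of the receptor, and sex, relate to the expression of these genes in the liver.

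Type I interferons signal through a receptor on nearly all cells and activate STAT2 and IRF9, which act at interferon-stimulated response elements (ISREs) in the promoters of antiviral genes. Interferon gamma, made by T and NK cells, acts through GAS elements and induces guanylate-binding proteins, immunity-related GTPases, chemokines and the MHC genes. Class I molecules, with beta-2 microglobulin, show peptides on most cells, while class II molecules are found mainly on dendritic cells, B cells and macrophages, among them the Kupffer cells of the liver. In whole liver, fewer cells of a type and less RNA per cell cannot be told apart.

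The promoters of 3 members are shown, from those with an ISRE core before the start site and the smallest p for the genotype averaged over the sexes. Gbp3, with a negative fold change, was also among these and is not printed. The averaged genotype fold changes of the 3 were negative for Ifit1 and positive for Bst2 and Isg15. The sequences are from RefSeq on GRCm38.p6, given 5′ to 3′ on the gene's strand. Capitals mark the ISRE core GAAANNGAA on either strand, where overlapping cores run together. The stretch of Bst2 is chr8:71537558-71537632, minus strand, bases -160 to -86 from the start site, and holds 2 cores. That of Ifit1 is chr19:34640750-34640843, plus strand, bases -139 to -46, with 3 cores, and that of Isg15 is chr4:156200846-156200926, minus strand, bases -108 to -28, with 3 cores.
Bst2: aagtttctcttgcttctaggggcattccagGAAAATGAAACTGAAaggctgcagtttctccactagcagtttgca
Ifit1: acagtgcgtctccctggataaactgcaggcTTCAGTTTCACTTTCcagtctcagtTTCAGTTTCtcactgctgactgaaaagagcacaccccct
Isg15: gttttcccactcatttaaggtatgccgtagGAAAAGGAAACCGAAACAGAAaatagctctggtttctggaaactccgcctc

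Of the 37 members, 28 had an entry in the RefSeq promoter table, with 32 windows of 300 bases from 250 before to 50 after a start site. The ISRE core was found on either strand in 18 of the 32 windows (56.2%), against 8.56% of the 32851 windows of all genes. It was present in Bst2, Ddx58, Gbp2, Gbp3, Ifi44, Ifih1, Ifit1, Ifit3, Igtp, Irgm1, Isg15, Oas1a, Oas3, Rsad2, Stat2, B2m, Cxcl9 and Cxcl10. The GAS letters TTCNNNGAA, which can overlap an ISRE core, were found in 6 windows (18.8%, all genes 8.3%), and the core of the receptor's own response element, GCGTG, in 14 windows (43.8%, all genes 32.4%). These matches are a description of letters in a window, on either strand, and not of bound sites.

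The depth and make-up of the libraries bear on what follows. Library totals ran from 9794253 to 18924880 counts, and the members together took between 0.134% and 0.278% of them. Counts of the 13 mitochondrially encoded genes took 30.4% to 69.8% of a library. The targeted gene Ahr was read at 12.4 to 25.0 CPM (counts scaled to a common library total, after TMM scaling) in the controls and at 13.7 to 24.5 CPM in the Ahr-null livers, so a count over the whole gene does not separate the genotypes. Its target Cyp1a2, a cytochrome P450, lay at 452 to 1170 CPM in the 6 controls and at 47.0 to 217 CPM in the 6 Ahr-null livers, without overlap. The hepatocyte markers Alb, Apoa1, Ttr, Cps1 and Hnf4a summed to at least 17070 CPM in every library. The sum of the 20 markers of neurons and glia was highest in Ahr-null female replicate 1 (500 CPM) and control male replicate 1 (272 CPM), against 83.7 CPM in control female replicate 2 and 18.2 to 26.5 CPM in the others. Ahr-null female replicate 1 correlated with the other 2 libraries of its group at 0.805 and 0.811 across genes, against at least 0.938 for every other replicate pair. Its Xist level was 155 CPM against 679 to 1292 CPM in the other 5 females. Of the Y-linked genes, Kdm5d was at 2.02 CPM against at most 0.207 CPM, and Eif2s3y at 2.11 CPM against at most 0.982 CPM. Ddx3y, also Y-linked, did not set this library apart, at 1.84 CPM against 0.120 to 2.51 CPM in the other females. Fold changes that moved most with this library are therefore given with and without it.

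No member differed between the genotypes by edgeR's quasi-likelihood test at an adjusted p under 0.05, in either sex or averaged over the sexes. A member counts as called here when its p, adjusted by Benjamini-Hochberg over all 13641 genes, is under 0.05, and fold changes are Ahr-null minus control on the log2 scale. Averaged over the sexes, 0 of the 37 members were called, where 1.06% of all genes were. The count was also 0 in males (0.0367% of all genes), in females (0.161%) and for the interaction of genotype and sex (0.00733%). DESeq2, limma-voom and limma on the deposited values each called 0 members in these 4 contrasts. Of all genes, DESeq2 called 3.85% averaged, 0.613% in males, 3.11% in females and 0.129% for the interaction, while limma-voom called 0.872%, 0.022%, 0.257% and 0.00733%. With limma on the deposited values the shares were 1.14%, 0.0586%, 0.374% and 0.0293%. The smallest adjusted p of a member was 0.188 for the averaged contrast, 0.853 in males and 0.25 in females.

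Before adjustment, 3 members had p under 0.05 for the averaged contrast, Bst2 with a higher and Ifit1 and Gbp3 with a lower level in Ahr-null livers, where 15.3% of all genes did. In males Bst2 alone did (5.81% of all genes), in females Psmb9, Ifit1 and Irf7 did (14.4%), and for the interaction no member did (4.6%). In each of these contrasts the members' share was below that of all genes. Of the members, 18 had a positive and 19 a negative averaged fold change, and their median of -0.01 lay beside 0.04 for all genes. The medians were -0.10 in males and -0.10 in females, beside 0.00 and 0.06 for all genes.

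The precision sets what these zeros cover. For 27 of the 37 members the 95% interval of the averaged fold change lay within 2-fold in either direction, with a median half-width of 0.56 on the log2 scale. In males 20 members and in females 11 members had such an interval, and for the interaction only 3 did. The interval reached 2-fold for the other 17 members in males and 26 in females, so a difference of that size is not excluded for them. The median half-width was 0.79 in males and in females. With 3 livers a group, differences within 1 sex smaller than this would mostly not pass even before adjustment. The p-values measure the spread between the samples, each of which was taken as a separate mouse because the labels give 1 liver per sample.

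**Figure D1:**
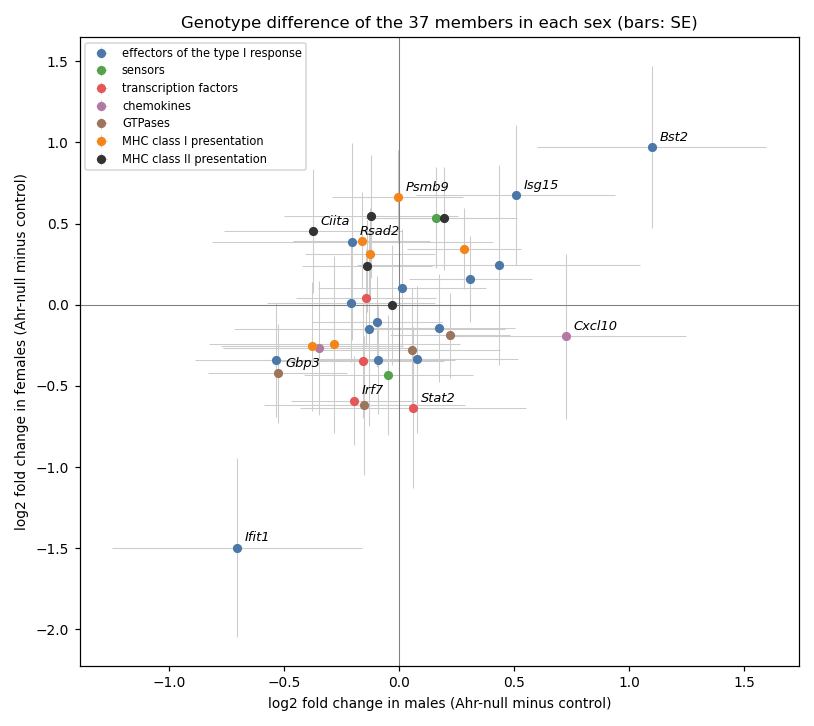
Each point is 1 of the 37 members, with its log2 fold change (Ahr-null minus control) in males on the x axis and in females on the y axis, coloured by role, with bars of 1 SE. Bst2 and Ifit1 stand at opposite corners, and the other members lie within about 1 log2 unit of no difference, with bars that mostly cross 0.

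The effectors of the type I response were split. Of 14 effectors, 7 had a positive and 7 a negative averaged fold change, from -1.10 for Ifit1 to 1.03 for Bst2. Ifit1 (ENSMUSG00000034459, chr19:34640871-34650009, GRCm38), which encodes a protein that binds viral RNA with an unmethylated cap, was read at 68.1, 29.2 and 54.6 CPM in male controls and 26.1, 46.5 and 20.9 CPM in Ahr-null males. Its level was 57.4, 190 and 79.9 CPM in control females and 68.8, 23.1 and 24.1 CPM in Ahr-null females. The groups overlapped in both sexes, and the highest value was that of control female replicate 2. The averaged fold change of Ifit1 was -1.10 ± 0.39 (SE, adjusted p = 0.198 by edgeR's quasi-likelihood test), with an interval from -1.94 to -0.26. In males it was -0.70 ± 0.54 (adjusted p = 1) and in females -1.50 ± 0.55 (adjusted p = 0.25).

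Leaving out single libraries moved the fold change of Ifit1 up and down. Without Ahr-null female replicate 1 its averaged fold change was -1.45 with an adjusted p of 0.038 by edgeR, the 1 setting that called it. That setting called 4.78% of all genes and 1 of the 37 members. Without that library and control male replicate 1 it was -1.31 (adjusted p = 0.0639), and without control female replicate 2 it was -0.77 (adjusted p = 0.444). Ifit1 belongs to a family of similar genes, so its counts are uncertain where reads could be shared with them.

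Bst2 (ENSMUSG00000046718, chr8:71534255-71537456, GRCm38), or tetherin, which holds budding enveloped viruses at the cell surface, was read at 30.8, 37.3 and 34.5 CPM in male controls and 49.0, 39.6 and 131 CPM in Ahr-null males. Female levels were 39.4, 26.9 and 29.1 CPM in controls and 113, 41.9 and 32.9 CPM in Ahr-null livers. The male groups did not overlap and the female groups did, and 1 library stood far above the rest in each Ahr-null group. The averaged fold change was 1.03 ± 0.35 (adjusted p = 0.188 by edgeR), with 1.10 ± 0.50 in males and 0.97 ± 0.50 in females. Without Ahr-null female replicate 1 the averaged fold change of Bst2 was 0.68 (adjusted p = 0.15), and in females it was 0.25. Without Ahr-null male replicate 3 the fold change in males was 0.37. Scaled by library size alone, an alternative that moves the median of all genes to 0.53, Bst2 was called at 1.57 (adjusted p = 0.0289), where 7.72% of all genes were called averaged over the sexes.

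Isg15, a ubiquitin-like modifier, gave a similar picture to Bst2. It was read at 7.49, 8.98 and 8.79 CPM in male controls, 8.92, 10.3 and 16.7 CPM in Ahr-null males, 11.7, 13.2 and 10.2 CPM in control females and 35.7, 10.6 and 10.1 CPM in Ahr-null females. The averaged fold change of Isg15 was 0.59 ± 0.31 (adjusted p = 0.378), and 0.18 without Ahr-null female replicate 1. The female fold change had the opposite sign without that library, at -0.16 against 0.68. The remaining effectors, Ifit2, Ifit3, Mx1, Mx2, Oas1a, Oas2, Oas3, Oasl2, Rsad2, Usp18 and Ifi44, had averaged fold changes from -0.44 (Ifi44) to 0.34 (Oas2). Without Ahr-null female replicate 1 they ran from -0.57 (Rsad2) to 0.61 (Oas2), and Rsad2 had 0.09 with that library.

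**Figure D2:**
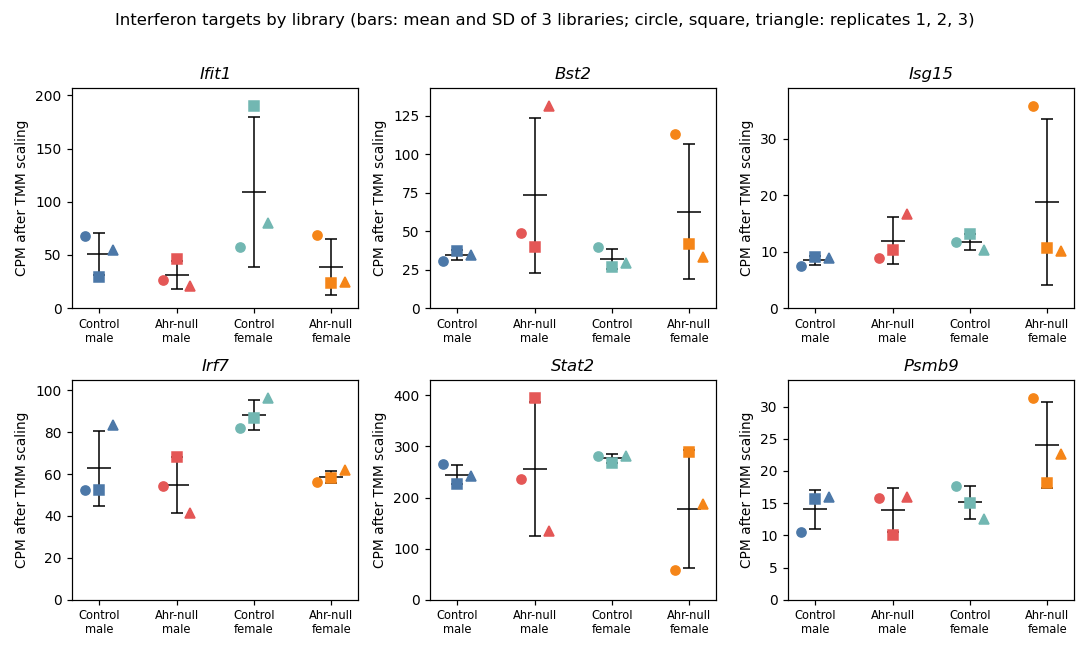
Levels of 6 members in CPM after TMM scaling (y axis) in the 4 groups (x axis), with 1 symbol per library and bars for the mean and SD of 3 libraries. Bst2 and Isg15 are set apart by 1 library in each Ahr-null group, Irf7 is lower in all 3 Ahr-null females than in all 3 control females, and Stat2 spreads from 59.0 to 395 CPM among the Ahr-null livers.

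The 2 sensors of cytosolic double-stranded RNA had averaged fold changes of opposite sign, both smaller without Ahr-null female replicate 1. Ifih1 (MDA5) was read at 7.25, 8.18 and 8.16 CPM in control females and 17.1, 7.04 and 10.2 CPM in Ahr-null females, and at 5.98, 9.29 and 8.41 CPM against 8.01, 8.22 and 10.3 CPM in males. Its averaged fold change was 0.35 ± 0.22 (adjusted p = 0.486), and 0.16 without that library. Ddx58 (RIG-I) was read at 22.4, 24.3 and 30.3 CPM in control females and 7.53, 23.03 and 26.2 CPM in Ahr-null females, and at 20.8, 18.3 and 27.2 CPM against 23.8, 20.6 and 19.8 CPM in males. Its averaged fold change was -0.24 ± 0.26 (adjusted p = 0.718), and -0.04 without that library. In both genes the extreme value was that of Ahr-null female replicate 1, above its group for Ifih1 and below it for Ddx58.

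All 4 transcription factors had negative averaged fold changes, none called. With library size alone all 4 were positive, and relative to the shift of all genes under that scaling all 4 were again negative. Irf7 (ENSMUSG00000025498, chr7:141262706-141266481, GRCm38), the factor that amplifies type I interferon production, was read at 82.2, 86.6 and 96.3 CPM in control females and 56.0, 58.3 and 61.7 CPM in Ahr-null females. These groups did not overlap, and the Ahr-null females lay close together. In males the level was 52.3, 52.5 and 83.2 CPM in controls and 54.4, 68.2 and 41.4 CPM in Ahr-null livers, with overlap. The fold change of Irf7 was -0.59 ± 0.27 in females (adjusted p = 0.347), -0.20 ± 0.27 in males and -0.39 ± 0.19 averaged (adjusted p = 0.352). Without Ahr-null female replicate 1 the female fold change was -0.54. Irf7 shares 45 exonic bases with Phrf1 on the other strand, so a part of its counts may belong to that gene.

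Stat2, which acts with IRF9 at the ISRE, varied mainly among the Ahr-null livers. It was read at 265, 227 and 242 CPM in male controls and 282, 267 and 282 CPM in control females, a narrow range. In Ahr-null males it was 237, 395 and 134 CPM and in Ahr-null females 59.0, 289 and 187 CPM. The averaged fold change was -0.29 ± 0.35 (adjusted p = 0.754), and -0.07 without Ahr-null female replicate 1. Irf9 had -0.25 ± 0.25 and Irf1, the factor induced by interferon gamma, -0.05 ± 0.22. Without the same library these were -0.09 and 0.07, so 3 of the 4 factors then had a negative fold change.

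Of the chemokines that draw T cells through CXCR3, Cxcl9 was read at 12.97, 17.0 and 26.6 CPM in male controls and 11.8, 16.7 and 16.03 CPM in Ahr-null males. Female levels were 20.5, 42.7 and 28.7 CPM in controls and 42.9, 18.9 and 14.6 CPM in Ahr-null livers. The averaged fold change of Cxcl9 was -0.31 ± 0.29 (adjusted p = 0.673), and -0.60 without Ahr-null female replicate 1 (adjusted p = 0.13). Cxcl10 was low throughout, between 0.505 and 4.91 CPM, with an averaged fold change of 0.26 ± 0.36 (adjusted p = 0.791).

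Among the GTPases induced by interferon gamma, which act on membranes around intracellular microbes, Gbp3 (ENSMUSG00000028268, chr3:142560026-142573209, GRCm38) had the lowest p. It was read at 16.4, 13.2 and 19.3 CPM in control males against 13.8, 9.38 and 10.7 CPM in Ahr-null males, and at 15.1, 34.7 and 21.98 CPM in control females against 17.3, 15.5 and 20.6 CPM in Ahr-null females. The groups overlapped in both sexes. Its fold change was -0.48 ± 0.21 (adjusted p = 0.312), and -0.30 without control female replicate 2. Gbp2, at 2.69, 3.49 and 2.58 CPM in control females and 2.39, 1.44 and 1.88 CPM in Ahr-null females, did not overlap in that sex, with a fold change of -0.62 ± 0.43 (adjusted p = 0.532). In males it was read at 0.758, 1.16 and 2.04 CPM in controls and 0.868, 1.01 and 1.70 CPM in Ahr-null livers, with overlap, and its averaged fold change was -0.39 ± 0.31 (adjusted p = 0.596). Igtp and Irgm1 had averaged fold changes of -0.11 ± 0.27 and 0.02 ± 0.18.

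Among the 6 members of MHC class I presentation, the sexes had different signs for several genes. In females 4 of the 6 members had a positive fold change and in males 1 did, and the interaction term (male minus female) was negative for all 6, with 0.999 as the smallest adjusted p. It stayed negative for all 6 by RLE factors, by library size alone and with the mitochondrially encoded genes left out, and for 5 of 6 without Ahr-null female replicate 1. Of 25 further class I genes, 16 had a positive fold change in males and 15 in females. The interaction term of these further genes was positive for 12 and negative for 13. Psmb9 (ENSMUSG00000096727, chr17:34181987-34187764, GRCm38), a catalytic subunit of the immunoproteasome, was read at 17.7, 15.1 and 12.6 CPM in control females and 31.3, 18.1 and 22.6 CPM in Ahr-null females, without overlap. In males it was 10.5, 15.6 and 15.9 CPM in controls and 15.7, 10.005 and 16.03 CPM in Ahr-null livers. Its fold change was 0.67 ± 0.29 in females (adjusted p = 0.311), 0.45 without Ahr-null female replicate 1, and -0.01 ± 0.29 in males. Averaged over the sexes it was 0.33 ± 0.20 (adjusted p = 0.472).

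Tap2, a subunit of the peptide transporter into the endoplasmic reticulum, was read at 22.7, 24.003 and 19.5 CPM in control females against 21.1, 29.8 and 33.1 CPM in Ahr-null females, and at 14.0, 18.4 and 21.2 CPM against 23.8, 18.7 and 22.7 CPM in males. Its averaged fold change was 0.31 ± 0.17 (adjusted p = 0.419). Psmb8, another immunoproteasome subunit, had 0.39 ± 0.30 in females but -0.05 without Ahr-null female replicate 1. B2m, the shared light chain of class I, had an averaged fold change of -0.32 ± 0.28, Tap1 0.09 ± 0.20 and Nlrc5, the class I transactivator, -0.26 ± 0.39. Without Ahr-null female replicate 1 these were -0.60 for B2m, 0.20 for Tap1 and 0.00 for Nlrc5, whose female fold change was then 0.27 against -0.24 with it. Tap1 and Psmb9 share 212 exonic bases on opposite strands, and Tap2 and Psmb8 share bases with antisense transcripts, so reads of these pairs cannot be told apart without strand. In all, 14 members share exonic bases with another gene.

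Levels of the 5 class II members were lower in the male than in the female groups of both genotypes. The 5 class II members, Cd74, H2-Aa, H2-Ab1, H2-Eb1 and Ciita, summed to 139 ± 26.3 CPM (SD, n = 3) in control males, 131 ± 42.0 CPM in Ahr-null males, 212 ± 41.9 CPM in control females and 262 ± 33.5 CPM in Ahr-null females. For the genotype, H2-Eb1, a class II beta chain, was read at 23.1, 38.4 and 20.9 CPM in control females and 48.0, 31.2 and 39.8 CPM in Ahr-null females, and at 14.8, 19.1 and 18.1 CPM against 21.8, 12.3 and 25.2 CPM in males. Its averaged fold change was 0.36 ± 0.22 (adjusted p = 0.48), and 0.30 without Ahr-null female replicate 1. H2-Aa, an alpha chain, was read at 25.0, 37.1 and 26.0 CPM in control females and 58.0, 31.4 and 39.0 CPM in Ahr-null females, and at 17.9, 22.5 and 22.9 CPM against 17.2, 9.62 and 31.2 CPM in males. Its averaged fold change was 0.21 ± 0.27 (adjusted p = 0.767), and 0.09 without that library. The groups of both genes overlapped between the genotypes in each sex.

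Between the sexes, most members were lower in males, and again none was called by edgeR. Fold changes here are male minus female. In controls 31 of the 37 members were lower in males, with a median of -0.39 beside 0.01 for all genes, and 51.2% of all genes had a positive fold change. In Ahr-null livers 27 members were lower, with a median of -0.37 beside -0.05, and 45.7% of all genes had a positive fold change. The background of calls was 0.352% of all genes in controls and 0.279% in Ahr-null livers, and 0 members were called in either. Before adjustment, 6 members had p under 0.05 in controls, all lower in males (Cd74, Cxcl10, Gbp2, Ifit3, Igtp and Oas3), where 5.79% of all genes did. In Ahr-null livers 8 did, 7 lower (Cd74, Ciita, H2-Aa, H2-Eb1, Ifit3, Psmb8 and Psmb9) and Mx2 higher, where 8.68% of all genes did. DESeq2 called 1 member, Cd74 in the Ahr-null livers (adjusted p = 0.0168), where it called 1.46% of all genes, and limma-voom and limma on the deposited values called 0 in both genotypes. With library size alone, where the median of all genes was 0.31 in controls and 0.20 in Ahr-null livers, 19 and 22 members were lower in males.

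Cd74 (ENSMUSG00000024610), the invariant chain that guides class II molecules to the endosome, was read at 56.0, 87.1 and 86.5 CPM in male controls and 113, 131 and 109 CPM in control females. In Ahr-null males it was 83.5, 48.5 and 76.3 CPM and in Ahr-null females 144, 142 and 130 CPM. No male reached the lowest female of its genotype. The sex difference was -0.62 ± 0.28 in controls (adjusted p = 0.854 by edgeR) and -0.99 ± 0.28 in Ahr-null livers (adjusted p = 0.261), and in the latter it was -0.96 without Ahr-null female replicate 1.

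The other 4 class II members were lower in males in both genotypes as well. That direction of all 5 was the same by each scaling tried and without each library, which describes the sign and not the size. H2-Eb1 differed by -0.66 ± 0.32 in controls and -1.0 ± 0.32 in Ahr-null livers (adjusted p = 0.878 and 0.361), the latter -0.83 without Ahr-null female replicate 1. H2-Aa differed by -0.47 ± 0.38 and -1.14 ± 0.38 (adjusted p = 0.999 and 0.404), the latter -0.84 when Ahr-null female replicate 1 was left out and -1.66 when Ahr-null male replicate 3 was. H2-Ab1 differed by -0.71 ± 0.37 and -0.74 ± 0.37, the latter -0.46 with the same female library left out. Ciita, the coactivator that class II transcription depends on, was read at 4.97, 5.03 and 7.07 CPM in male controls, 7.59, 11.1 and 4.08 CPM in control females, 6.79, 3.26 and 3.08 CPM in Ahr-null males and 10.01, 11.7 and 9.39 CPM in Ahr-null females. Its sex difference was -0.41 ± 0.39 in controls and -1.24 ± 0.38 in Ahr-null livers (adjusted p = 0.33), and the interaction of genotype and sex for Ciita was -0.83 ± 0.54. The Ciita difference in controls rested largely on control female replicate 2, at 11.1 CPM, while control female replicate 3, at 4.08 CPM, lay below every control male. Class II chain genes resemble each other, so their counts are uncertain where reads could be shared.

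**Figure D3:**
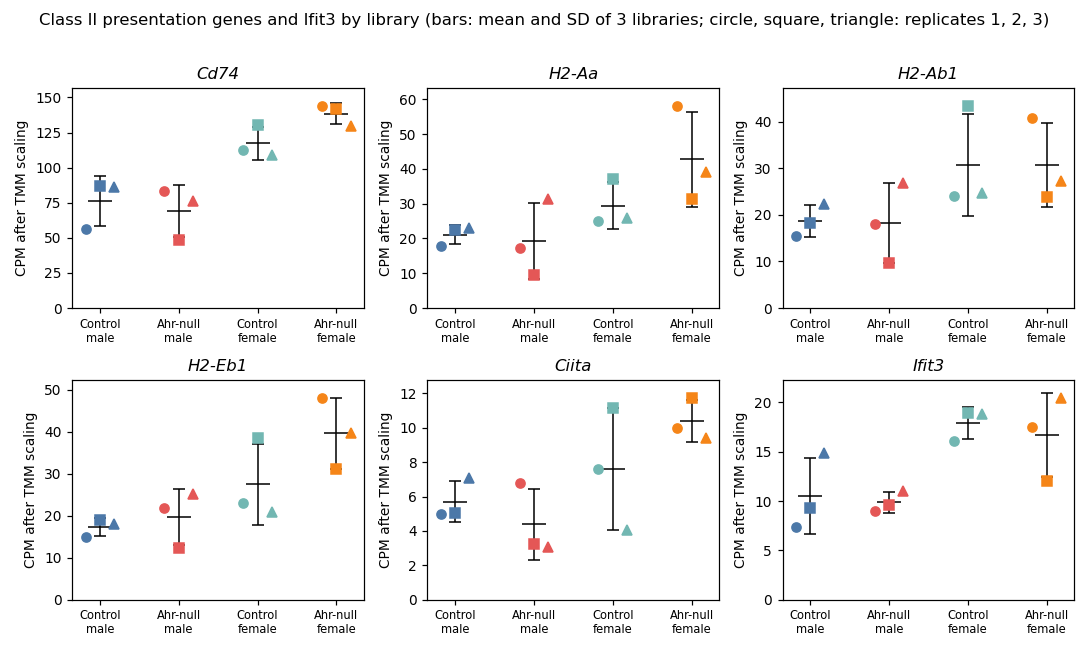
Levels of the 5 class II members and of Ifit3 in CPM after TMM scaling (y axis) in the 4 groups (x axis), with 1 symbol per library and bars for the mean and SD of 3 libraries. For Cd74, H2-Aa, H2-Eb1 and Ifit3 every male lies below every female of the same genotype, while H2-Ab1 overlaps between Ahr-null males and females and Ciita between control males and females.

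The same separation was counted over all members. Male and female controls did not overlap for 10 members, 9 lower in males (Cd74, Gbp2, H2-Aa, H2-Ab1, H2-Eb1, Ifit3, Isg15, Oas3 and Stat2) and Mx2 higher, where 18.6% of all genes did not overlap. In Ahr-null livers 9 members did not overlap, all lower in males (Cd74, Ciita, Gbp3, H2-Aa, H2-Eb1, Ifi44, Ifit3, Psmb8 and Psmb9), where 11.2% of all genes did not. Cd74, H2-Aa, H2-Eb1 and Ifit3 did not overlap in either genotype, with the same direction, where 2.62% of all genes did so. For H2-Aa the highest Ahr-null male lay only just below the lowest Ahr-null female. Scaled by library size alone, no member met this, where 2.12% of all genes did. With RLE factors 3 members did (2.59% of all genes), as with the mitochondrially encoded genes left out (2.63%). Without both libraries with neural transcripts 5 members did (8.24%). Between the genotypes, 1 member did not overlap in males (Bst2, where 13.9% of all genes did not) and 3 did not in females (Psmb9 higher, Gbp2 and Irf7 lower in Ahr-null livers, where 19.1% of all genes did not). No member did so in both sexes with the same direction, where 2.9% of all genes did.

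Outside class II, Ifit3, a gene of the same family as Ifit1, had nearly the same sex difference in both genotypes. It was read at 7.41, 9.29 and 14.8 CPM in male controls, 16.1, 18.9 and 18.8 CPM in control females, 8.96, 9.62 and 11.01 CPM in Ahr-null males and 17.5, 12.0 and 20.4 CPM in Ahr-null females. The difference was -0.76 ± 0.28 in each genotype (adjusted p = 0.669 in controls and 0.476 in Ahr-null livers). Mx2, a dynamin-like GTPase that blocks viruses, was the member with the largest difference in the other direction, at 0.61 ± 0.45 and 1.02 ± 0.45, and 0.63 in Ahr-null livers without Ahr-null female replicate 1.

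**Figure D4:**
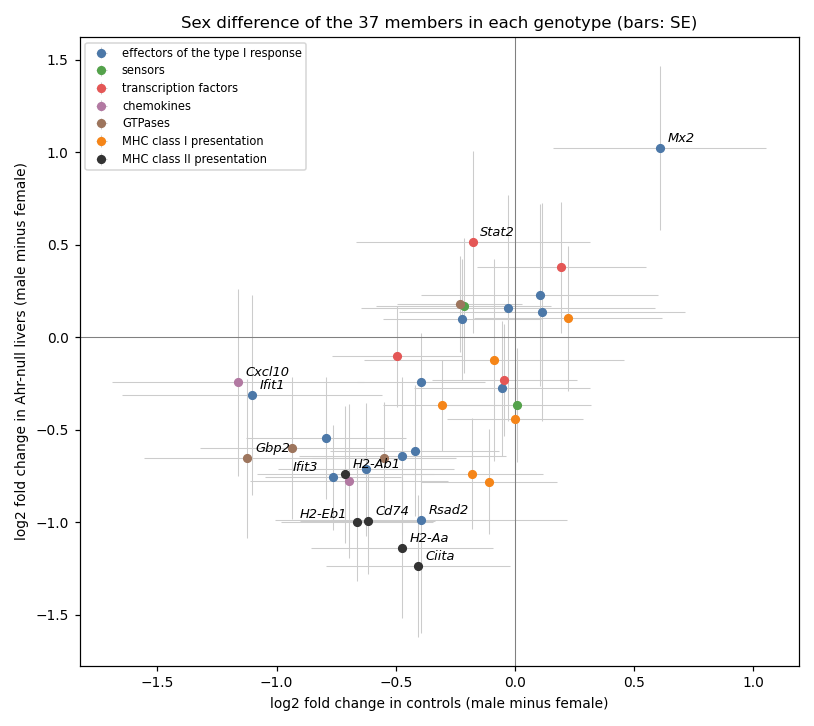
Each point is 1 of the 37 members, with its log2 fold change between the sexes (male minus female) in controls on the x axis and in Ahr-null livers on the y axis, coloured by role, with bars of 1 SE. The 5 class II members lie in the lower left, lower in males in both genotypes, as do other members such as Cxcl9 and Ifit3. Mx2 lies furthest to the upper right, where other members such as Irf9 and B2m also lie, nearer the origin.

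Markers of immune cells, of which only some carry class II, are given beside these values, and none of them was called for sex in either genotype. For the genotype averaged over the sexes, Marco (Kupffer cells) was called higher and Gpnmb (macrophages) lower in Ahr-null livers, where 1.06% of all genes were called. In that contrast 5 of the 7 T and NK cell markers tested had an unadjusted p under 0.05, all higher (15.3% of all genes, either direction). The 10 Kupffer cell markers summed to 285 to 346 CPM in male controls and 471 to 625 CPM in control females, and to 319 to 488 CPM in Ahr-null males and 431 to 578 CPM in Ahr-null females. All 10 were lower in male than in female controls, 5 of them with an unadjusted p under 0.05, and 9 of 10 were lower in Ahr-null males. The 10 markers of monocytes and lipid-associated macrophages summed to 77.6 to 92.7 CPM in male controls, 95.1 to 227 CPM in control females, 43.4 to 82.4 CPM in Ahr-null males and 67.3 to 180 CPM in Ahr-null females. The 9 dendritic cell markers summed to 31.8 to 40.7 CPM and 41.5 to 46.4 CPM in male controls and females, and to 28.8 to 42.7 CPM and 18.8 to 46.7 CPM in Ahr-null males and females. None of the 8 dendritic cell markers tested had an unadjusted p under 0.05 for sex, and the Kupffer, dendritic and B cell sums of Ahr-null males and females overlapped. For the dendritic and B cell sums the overlap rested on Ahr-null female replicate 1, at 18.8 and 12.9 CPM. The other Ahr-null females had 46.3 and 46.7 CPM for dendritic cells and 39.9 and 24.7 CPM for B cells, above every Ahr-null male. In Ahr-null males 9 of 9 monocyte and macrophage, 7 of 7 B cell and 5 of 8 dendritic cell markers tested were lower. In control males the counts were 8, 7 and 7. The 9 B and plasma cell markers summed to 13 to 16.4 CPM and 19.2 to 42.9 CPM in male controls and females, and to 13.5 to 24.4 CPM and 12.9 to 39.9 CPM in Ahr-null males and females. The 12 T and NK cell markers summed to 3.79 to 6.63 CPM in male controls, 3.91 to 6.01 CPM in control females, 5.35 to 9.67 CPM in Ahr-null males and 10.99 to 17.3 CPM in Ahr-null females, the group where the class II sum and Psmb9 were highest. Every marker of these lists had counts in at least 1 library. The part of these cells in the members' levels was not tested.

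The members varied among themselves in ways the groups did not set, and Ahr-null female replicate 1 split the list. Against the mean of the other 2 libraries of its group on the log2 scale, Oas2 was at -3.51, Mx1 at -3.37, Nlrc5 at -3.06, Stat2 at -1.98, Mx2 at -1.96 and Ddx58 at -1.69. In the same library Rsad2 was at 2.50, Isg15 at 1.78, Bst2 at 1.60, Ifit1 at 1.54, B2m at 1.34 and Psmb8 at 1.09. Oas2 was read at 3.31 CPM there against 36.7 and 41.3 CPM, and Rsad2, an enzyme that makes an antiviral nucleotide, at 48.9 CPM against 7.76 and 9.39 CPM. The direction did not follow the roles, since antiviral effectors stood at both ends. Across the 37 members the deviation correlated with exonic length at -0.44, against -0.07 across 13621 genes, as a description with no test. Ahr-null male replicate 3 showed a split that was alike only in part, with Bst2 at 1.57 and Stat2 at -1.19. Ifit1 (-0.73), Mx2 (0.48) and Mx1 (0.02) had the opposite sign to the female library, and the other genes named above had the same sign. The deviation in this male library correlated with length at -0.53 across the members, against -0.15 across all genes. The mitochondrial share was 39.8% in the female and 30.4% in the male library, and the labels give an average RNA integrity number of 7.0 with no value per library. The part of length, RNA quality, the neural transcripts and the mitochondrial share in this split was not tested.

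**Figure D5:**
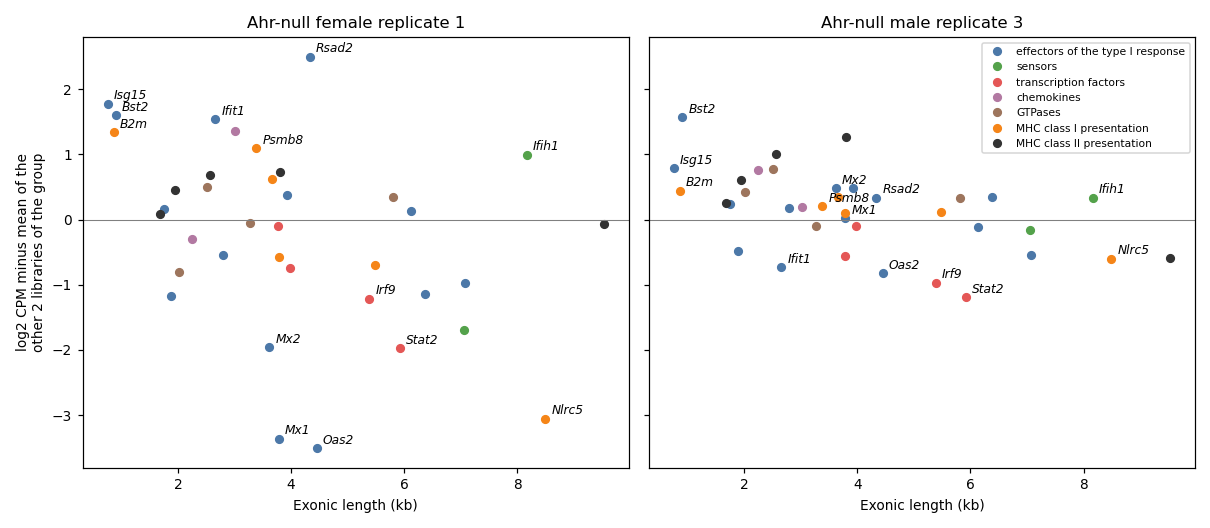
Deviation of each of the 37 members in Ahr-null female replicate 1 (left) and Ahr-null male replicate 3 (right) from the mean of the other 2 libraries of the group, as a log2 difference of CPM (y axis), against exonic length in kb (x axis), coloured by role. In the female library Oas2, Mx1 and Nlrc5 lie more than 3 log2 units below the group, while Rsad2, Isg15, Bst2 and B2m lie above it.

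Within roles, the class II genes went together most closely. Over the 12 libraries, which share the group differences and the library effects above, the pair with the highest Pearson correlation of log2 CPM was H2-Aa and H2-Ab1 (0.94, and 0.92 over the 10 libraries without the 2 with neural transcripts). The median over the 10 class II pairs was 0.85. Irf9 and Stat2 followed at 0.93 (0.82 without the 2 libraries), Psmb8 and Psmb9 at 0.82 (0.68), Gbp2 and Igtp at 0.77 (0.79), and Cxcl9 and Cxcl10 at 0.48 (0.49). Mx1 and Oas2 correlated at 0.91, and at 0.31 without the 2 libraries. Over the 91 pairs of effectors the median was 0.09, and the sensors Ifih1 and Ddx58 were at -0.74, or -0.19 without the 2 libraries.

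Per kb of exonic length, B2m was by far the most abundant member, at 1014 CPM per kb averaged over the libraries. Cd74 followed at 59.8 CPM per kb, Bst2 at 55.9 and Stat2 at 40.3, and Oas3 was lowest at 0.408. The neighbours Cd74 and Bst2 in that order had overlapping ranges over the libraries.

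Other genes of the pathway, from lists of related genes, gave the same count of 0 calls in each of the 6 contrasts. Of 40 further interferon-stimulated genes, 17 had a positive and 23 a negative averaged fold change. For sex, 25 of them were lower and 15 higher in males in controls, while 18 were lower and 22 higher in Ahr-null livers. The lowest p was that of Rtp4 (-0.66 ± 0.19, adjusted p = 0.116), a chaperone of receptor proteins, and of Trim21, a cytosolic antibody receptor (-0.55 ± 0.21, adjusted p = 0.219). Of 13 further GTPases, 5 were positive and 8 negative for the genotype, and 12 were lower in males than in females in controls and 11 in Ahr-null livers. Their lowest p for the genotype were those of the near-identical genes Tgtp2 (0.62 ± 0.26) and Tgtp1 (0.64 ± 0.28), whose counts are uncertain.

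Of 32 ligands, receptors and signalling genes, 25 were tested, and Irf2, which competes with IRF1, had -0.61 ± 0.21 (adjusted p = 0.2). The ligands were scarcely read. Ifna2, Ifna4, Ifnl2 and Ifnl3 had no count in any library, Ifnb1 had 3 counts in 1 library, and Ifng had 20 counts over 9 libraries, with 8 as the highest in 1 library. At this depth no difference in these ligands was detectable. Of 25 further class I genes, the lowest p were those of Canx, a chaperone of class I folding (-1.04 ± 0.28, adjusted p = 0.1), and H2-Q10, a class I molecule secreted by the liver (0.72 ± 0.24, adjusted p = 0.177). Of 14 further class II genes, 11 were tested, with H2-DMa, which loads peptides onto class II (0.53 ± 0.22, adjusted p = 0.264), and H2-Ob (0.85 ± 0.41, adjusted p = 0.347) at the lowest p. For sex, 9 of the 11 were lower and 2 higher in males in controls. In Ahr-null livers 7 were lower and 4 higher, with a median of -0.04. Their interaction term (male minus female) was positive for 8 and negative for 3, while it was negative for all 5 class II members.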

How the data were processed

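The authors deposited raw counts per gene for 12 libraries and variance-stabilised values on a log2-like scale, per the file headers. FastQC 0.11.8, Trim Galore 0.6.5, STAR 2.7.8, DESeq2 1.28.1 and GRCm38 are named in the submitters' processing notes. Annotation release, read counter and strand setting: not given in the sources used here. Counts were filtered with filterByExpr by the 4 groups, scaled by TMM and tested with edgeR 4.0.16 in R 4.3.3 (robust quasi-likelihood, 1 mean per group, 8 residual degrees of freedom, two-sided), with Benjamini-Hochberg adjustment over 13641 genes. CPM are TMM-scaled, and log2 CPM use a prior count of 2. Gene positions and exonic lengths come from GENCODE on GRCm38. Replicate libraries differed by more than counting noise (chi-square per degree of freedom 22.2 to 248), so each counts once. The procedure was tested on simulated counts. Alternatives were DESeq2 1.42.0, limma 3.58.1 (voom, and on the deposited log2-like values), other scalings and filters, and leaving out each library. Leaving out both libraries with neural transcripts, and the non-overlap counts, were chosen after seeing the data. The members and lists were chosen with earlier results of these data known. Members with full values are the 2 with the smallest genotype p in each of the 7 roles, besides members singled out for sex or for single libraries after their values were seen. Ifi30 was not analysed here, and 1 other gene of the pathway lists is not reported here.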

Additional observations from a re-analysis of the deposited data

How the results depend on the processing

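Averaged over the sexes, leaving out 1 library at a time gave 0 to 1 called members, the 1 being Ifit1 without Ahr-null female replicate 1 (4.78% of all genes), and library size alone called 1, Bst2 (7.72% of all genes). In the sex comparison within Ahr-null livers DESeq2 called 1, Cd74 (1.46% of all genes). The median fold change of the members was 0.50 averaged, 0.36 in males and 0.44 in females with library size alone, when the median of all genes was 0.53, 0.47 and 0.58. With that scaling 19 members were lower in males among controls. Members whose groups did not overlap then numbered 2 and 11 for the genotype in males and females, 2 and 2 for sex in controls and Ahr-null livers, and 0 in both genotypes, where 15.7%, 27.3%, 18.3%, 7.59% and 2.12% of all genes did not overlap. Without both libraries with neural transcripts these counts were 7, 12, 17 and 16, where 22.6%, 42.2%, 33% and 31.1% of all genes did not overlap with fewer libraries. The other 247 summary values under alternatives stayed within the spread, or within 1.5 times the count, of the main value. The 3 livers per group limit the precision. No paired analysis was possible because the labels carry no numbers that pair samples across groups.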
